A study of Mus musculus with 18 samples.

Results

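The genes described here are 7 that mouse macrophages are known to use as markers of alternative activation or as sugar-binding receptors: Chil3, Retnla, Mrc1, Mgl2, Clec10a, Clec7a and Flt1. They were taken by name from the 21380 genes of a deposited expression table, and all 7 were found. RNA sequencing had been done on bone marrow-derived macrophages of Ldha knockout (KO) and wild-type (WT) mice. Ldha encodes the A chain of lactate dehydrogenase, which interconverts pyruvate and lactate. Marrow flushed from femurs was cultured for 7 days with macrophage colony-stimulating factor, and the cells were then given interleukin 4 (IL-4, called M2 in the labels) or interferon gamma (IFN-gamma, called M1) for 24 h, or left untreated. The 6 groups were KO with IL-4, WT with IL-4, KO with IFN-gamma, WT with IFN-gamma, KO untreated and WT untreated, with 3 libraries each. Per the labels' animal codes, 3 KO and 3 WT animals gave 1 library to each condition. How the Ldha allele was made, whether a Cre driver was used, and the age and sex of the animals are not given in the labels used here.

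IL-4 acts through a receptor chain encoded by Il4ra, Janus kinases and the transcription factor STAT6, and in mouse macrophages this switches on a set of secreted proteins, surface lectins and metabolic enzymes called alternative activation. IFN-gamma drives the opposing, classical program. Chil3 (Ym1) is a secreted chitinase-like protein, and Retnla (RELM-alpha, Fizz1) is a secreted resistin-like protein, both standard mouse markers of the IL-4 state. Mrc1 (CD206) is the mannose receptor, Mgl2 and Clec10a (Mgl1) are receptors for galactose and N-acetylgalactosamine, and Clec7a (dectin-1) is the receptor for fungal beta-glucan. Flt1 (VEGFR1) is a receptor tyrosine kinase for VEGF-A, VEGF-B and placental growth factor.

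Library totals over all genes ran from 9.77 to 49.5 M reads (median 30.9 M). Ldha in KO was 17.5% of WT with IL-4, 25.6% with IFN-gamma and 20.0% untreated. Lyz2, the lysozyme gene and a standard macrophage marker, was at 0.133%, 0.0866% and 0.124% of WT in the same conditions, so that KO and WT cells differed in Lyz2 as well as in Ldha. All 8 macrophage markers were measured in every group. Without Lyz2 their summed normalized counts were 180781 to 201596 in KO and 224072 to 244128 in WT with IL-4, 203470 to 218438 in KO and 244614 to 271666 in WT with IFN-gamma, and 233608 to 262596 in KO and 242959 to 254601 in WT untreated. Stromal and fibroblast markers (10 of 12 measured) summed to 600.3 to 1812 in KO and 273 to 982 in WT with IL-4, 314 to 1060 in KO and 183 to 375 in WT with IFN-gamma, and 557 to 1935 in KO and 231 to 604 in WT untreated. Their part in the results below was not tested. Fewer cells of a type and less RNA per cell cannot be told apart in such bulk libraries.

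In the files' coordinates (GRCm38), Chil3 lies on chromosome 3 (106147554 to 106167564, minus strand), Retnla on chromosome 16 (48842551 to 48844461, plus), Mrc1 on chromosome 2 (14229392 to 14332057, plus) and Clec7a on chromosome 6 (129461591 to 129472779, minus). Mgl2 (70130329 to 70137550) and Clec10a (70156197 to 70170834) are neighbours on the plus strand of chromosome 11, and Flt1 lies on chromosome 5 (147561604 to 147726011, minus). The table files Clec7a as a polymorphic pseudogene and the other 6 as protein coding. Some transcript sequence is shared with other genes: 26.9% of the 50-base words of Chil3 also occur in another annotated gene (Chil4 and Gm6522), as do 13.1% of those of Mgl2 and 9.02% of those of Clec10a, which share words with each other. For these 3 genes the split of reads between copies is uncertain. Retnla, Mrc1 and Clec7a share none, and Flt1 0.112%. The microRNA gene Mir511 lies inside Mrc1 on the same strand.

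The start regions of these genes are shown because the IL-4 changes described below are changes in transcript level of genes that STAT6 is known to regulate. STAT6 dimers are known to prefer the letters TTCNNNNGAA, and the shorter spacing TTCNNNGAA was searched beside it. Both motifs read the same on either strand, and the windows searched were those of 250 bases before to 50 bases after the RefSeq start (GRCm38.p6), which were found for 6 of the 7 genes. TTCNNNNGAA occurred in Retnla, 145 bases before the start, and in Clec7a, 131 bases before it. TTCNNNGAA occurred in Chil3, 172 bases before the start. Neither motif occurred in the windows of Mrc1, Mgl2 and Flt1, and no window held both. Among 27025 genes with such a window, 6.99% held TTCNNNNGAA and 8.47% held TTCNNNGAA. The windows are chr16:48842359-48842658 (plus) for Retnla, chr6:129472730-129473029 (minus) for Clec7a, chr3:106167515-106167814 (minus) for Chil3 and, as a window with no match, chr2:14229164-14229463 (plus) for Mrc1. Capitals mark the motif, and each line is 5′ to 3′ on the gene's strand. A match describes the letters and is not a bound site.
Retnla: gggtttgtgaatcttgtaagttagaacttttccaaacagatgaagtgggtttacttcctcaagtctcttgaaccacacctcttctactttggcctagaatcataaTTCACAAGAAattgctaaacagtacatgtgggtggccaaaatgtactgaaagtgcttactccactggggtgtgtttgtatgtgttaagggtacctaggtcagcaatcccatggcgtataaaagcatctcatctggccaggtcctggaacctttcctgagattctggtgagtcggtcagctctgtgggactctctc
Clec7a: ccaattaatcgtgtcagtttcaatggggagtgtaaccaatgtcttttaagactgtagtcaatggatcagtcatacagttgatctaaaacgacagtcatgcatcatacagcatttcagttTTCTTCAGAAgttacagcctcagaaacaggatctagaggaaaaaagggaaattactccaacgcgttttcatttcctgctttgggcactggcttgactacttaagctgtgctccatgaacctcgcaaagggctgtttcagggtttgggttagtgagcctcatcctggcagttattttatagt
Chil3: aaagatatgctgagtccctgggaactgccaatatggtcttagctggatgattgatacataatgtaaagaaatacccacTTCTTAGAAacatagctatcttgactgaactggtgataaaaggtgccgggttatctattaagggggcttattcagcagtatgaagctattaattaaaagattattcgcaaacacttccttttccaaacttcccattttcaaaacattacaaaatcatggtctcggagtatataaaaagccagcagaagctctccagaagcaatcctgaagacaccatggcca
Mrc1: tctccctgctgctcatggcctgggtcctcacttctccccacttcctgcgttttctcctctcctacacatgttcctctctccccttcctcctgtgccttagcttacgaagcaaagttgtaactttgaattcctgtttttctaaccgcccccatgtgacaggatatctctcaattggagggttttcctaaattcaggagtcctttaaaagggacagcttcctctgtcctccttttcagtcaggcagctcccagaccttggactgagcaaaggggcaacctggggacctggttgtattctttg

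Expression was followed as normalized counts, which are reads divided by the authors' size factor of the library. Changes are differences of log2 of the normalized count plus 1, with the standard error (SE) and the adjusted p of a limma fit across 14288 genes, and an adjusted p under 0.05 is called a pass. All 7 genes were among those tested, but Chil3 and Retnla reached the low-value filter through the IL-4 libraries alone and so had to differ there. Per kilobase of exon, mean levels with IL-4 ran in the order Clec7a (14975 normalized counts per kb in KO, 12309 in WT), Mrc1 (4655 in KO, 9365 in WT), Chil3 (3037 in KO, 3436 in WT), Mgl2 (1054 in KO, 1475 in WT), Retnla (801 in KO, 1782 in WT), Clec10a (279 in KO, 423 in WT) and Flt1 (254 in KO, 354 in WT), except that Retnla stood above Mgl2 in WT. Together the 7 genes took 0.237 to 0.297% of a library's reads in KO and 0.327 to 0.363% in WT with IL-4, 0.00995 to 0.0127% in KO and 0.0104 to 0.0123% in WT with IFN-gamma, and 0.0489 to 0.0596% in KO and 0.0669 to 0.0829% in WT untreated.

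**Figure D1:**
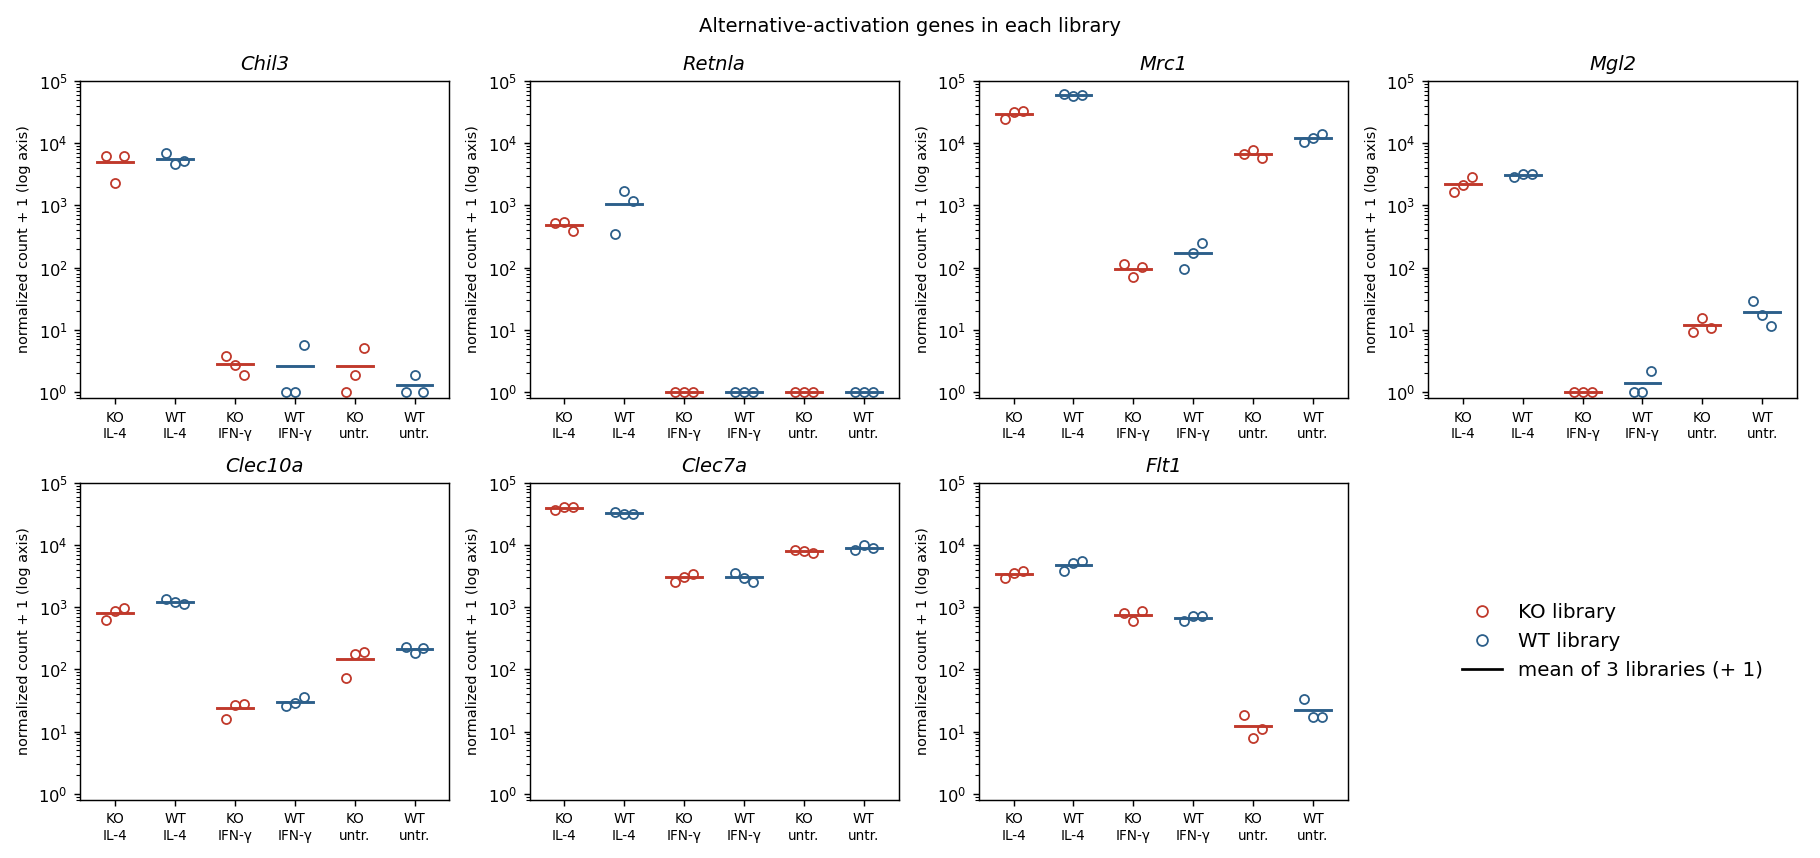
Normalized count plus 1 of each gene in each of the 18 libraries, on a log axis, with KO left of WT within IL-4, IFN-gamma and untreated. Circles are libraries and lines are means of 3. Every IL-4 library lies above every library of the other conditions for all 7 genes, and Flt1 is the gene whose IFN-gamma libraries lie above the untreated ones.

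The secreted markers Chil3 and Retnla were abundant with IL-4 in both genotypes and at or near 0 reads otherwise. Chil3 had 6242, 2316 and 6313 normalized counts in KO and 7005, 4587 and 5232 in WT with IL-4. In each other group its reads summed over 3 libraries were 5 (KO with IFN-gamma), 4 (WT with IFN-gamma), 6 (KO untreated) and 1 (WT untreated). Every IL-4 library thus stood far above all others. As ratios of reads scaled for depth, IL-4 over untreated came to 3036 in KO (95% exact interval 1395 to 8275) and 20962 in WT (3762 to 827992), intervals that cover counting error only. On the log2 scale the changes were 11.05 ± 0.64 in KO and 12.12 ± 0.64 in WT (adjusted p = 9.66e-10 and 3.33e-10). They differed by -1.07 ± 0.91 between genotypes (adjusted p = 0.999), and the WT value rests on 1 untreated read. IFN-gamma against untreated gave 0.34 ± 0.64 in KO and 0.53 ± 0.64 in WT, neither passing (adjusted p = 0.677 and 0.491).

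Retnla had 512, 540 and 387 normalized counts in KO and 342, 1675 and 1185 in WT with IL-4. It had 0 reads in all 12 libraries of the other conditions. With 3 reads over a group as the floor, it was at least 537-fold higher with IL-4 than untreated in KO and at least 1174-fold higher in WT. Against IFN-gamma the bounds were 434-fold in KO and 885-fold in WT. Retnla and Chil3 did not follow the same order across IL-4 libraries: WT replicate 1 had the highest Chil3 and the lowest Retnla of all 6, and KO replicate 2 had the lowest Chil3 and the highest Retnla of the KO libraries. The ratio of Chil3 to Retnla ran from 4.29 to 16.3 in KO and from 2.74 to 20.5 in WT.

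Mrc1, the mannose receptor, was raised by IL-4 and nearly lost with IFN-gamma. With IL-4 it had 24836, 31307 and 32834 normalized counts in KO and 62567, 57764 and 58654 in WT. With IFN-gamma it had 114, 69.3 and 101 in KO and 94.3, 171 and 249 in WT, and untreated it had 6710, 7811 and 5776 in KO and 10316, 12331 and 14060 in WT. The 3 conditions did not overlap in either genotype. IL-4 raised Mrc1 over untreated by 2.13 ± 0.25 in KO and 2.30 ± 0.25 in WT on the log2 scale (adjusted p = 3.84e-06 and 1.90e-06). IFN-gamma brought it to 1.40% of the untreated mean in both KO and WT (log2 changes of -6.16 ± 0.25 and -6.24 ± 0.25, adjusted p = 8.42e-13 and 5.95e-13). Within each animal the IFN-gamma change lay between -6.80 and -5.83 in KO and between -6.76 and -5.81 in WT.

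The galactose-type lectins Mgl2 and Clec10a, which lie side by side, moved the same way in each treatment but over different ranges. Mgl2 had 1628, 2123 and 2873 normalized counts in KO and 2854, 3154 and 3259 in WT with IL-4. With IFN-gamma it had 0 reads in KO and 1 read in WT, and untreated it had 8.15, 14.7 and 9.80 in KO and 28.3, 16.2 and 10.5 in WT. IL-4 raised Mgl2 over untreated by 7.54 ± 0.35 in KO and 7.42 ± 0.35 in WT (adjusted p = 5.78e-11 and 9.58e-11). Against untreated, Mgl2 with IFN-gamma was at least 10.2-fold lower in KO, and in WT the ratio of reads was 0.0211 (95% exact interval 0.000525 to 0.122).

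Clec10a had 613, 864 and 953 normalized counts in KO and 1368, 1207 and 1103 in WT with IL-4. With IFN-gamma it had 14.7, 26.0 and 26.96 in KO and 24.6, 28.2 and 35.4 in WT, and untreated it had 72.4, 178 and 186 in KO and 228, 180 and 223 in WT. No 2 conditions overlapped within a genotype. IL-4 raised Clec10a by 2.56 ± 0.30 in KO and 2.54 ± 0.30 in WT (adjusted p = 3.87e-06 and 4.79e-06), and IFN-gamma lowered it, with changes of -2.57 ± 0.30 in KO and -2.80 ± 0.30 in WT (adjusted p = 9.76e-07 and 2.61e-07). The ratio of Mgl2 to Clec10a within a library was 2.46 to 3.01 in KO and 2.09 to 2.96 in WT with IL-4, against 0.0526 to 0.113 in KO and 0.0473 to 0.124 in WT untreated. Mgl2 thus stood below its neighbour in untreated cells and above it with IL-4, with the shared sequence given above as a limit on both.

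Clec7a, the beta-glucan receptor, was the most abundant of the 7 genes per kilobase in every group. With IL-4 it had 36339, 41094 and 41078 normalized counts in KO and 34470, 31393 and 31550 in WT. With IFN-gamma it had 2574, 3093 and 3371 in KO and 3557, 2916 and 2528 in WT, and untreated it had 8282, 8120 and 7493 in KO and 8219, 10158 and 8765 in WT. All IL-4 libraries lay above all untreated ones, and these above all IFN-gamma ones. IL-4 raised Clec7a by 2.31 ± 0.12 in KO and 1.85 ± 0.12 in WT (adjusted p = 1.63e-10 and 3.19e-09), a difference in response of 0.46 ± 0.17 that did not pass (unadjusted p = 0.0125, adjusted p = 0.764). IFN-gamma lowered it, with changes of -1.41 ± 0.12 in KO and -1.60 ± 0.12 in WT (adjusted p = 1.20e-08 and 1.72e-09).

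Of 14 genes listed for signalling below dectin-1, IL-4 raised 3 and lowered 7 in KO, and raised 3 and lowered 5 in WT, where 15.8% and 16.3% of all genes tested were called higher and 14.5% and 14% lower. The medians of the list were -0.35 in KO and -0.19 in WT on the log2 scale, beside medians of 0.00 and -0.01 over all genes tested. Prkcd, the kinase that links Syk to Card9, rose by 1.02 ± 0.07 in KO and 0.94 ± 0.07 in WT (adjusted p = 5.25e-09 and 1.58e-08). Malt1, a part of the Card9 complex with Bcl10, rose by 1.07 ± 0.23 and 0.93 ± 0.23 in KO and WT (adjusted p = 0.00144 and 0.00455). Tlr2, a receptor that acts together with dectin-1, fell by 1.498 ± 0.13 in KO and by 1.06 ± 0.13 in WT (adjusted p = 1.02e-07 and 6.19e-06). With IFN-gamma 5 of the 14 rose and 2 fell in KO, and 6 rose and 2 fell in WT, with Src, a kinase, showing the largest change, of 2.40 ± 0.17 in KO and 1.48 ± 0.17 in WT (adjusted p = 1.06e-09 and 4.63e-07). The Src responses of KO and WT differed by 0.91 ± 0.23 (adjusted p = 0.0216). Over all genes tested, 55.8% in KO and 62.4% in WT were called with IFN-gamma. Calls in this list were thus no more frequent than among all genes. In KO the 7 called with IFN-gamma became 12 with the libraries of the compared groups alone and 11 after quantile normalization.

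Flt1 was the only one of the 7 genes that both cytokines raised. With IL-4 it had 2895, 3554 and 3839 normalized counts in KO and 3776, 5095 and 5451 in WT. With IFN-gamma it had 816, 591 and 866 in KO and 599, 709 and 719 in WT, and untreated it had 17.2, 6.93 and 9.80 in KO and 32.2, 16.2 and 15.8 in WT. The 3 conditions were apart in both genotypes. IL-4 raised Flt1 by 8.20 ± 0.28 in KO and 7.79 ± 0.28 in WT (adjusted p = 1.43e-12 and 3.35e-12), and IFN-gamma raised it by 6.01 ± 0.28 in KO and 4.99 ± 0.28 in WT (adjusted p = 4.27e-12 and 4.13e-11). The IFN-gamma responses of KO and WT differed by 1.02 ± 0.39, which did not pass (adjusted p = 0.116). It passed with DESeq2 (1.07, adjusted p = 0.0409) and when KO untreated replicate 1 was left out (1.35, adjusted p = 0.0282), the KO library with the highest untreated Flt1. Of the endothelial markers, 5 of 8 were measured. Their sum was 6239 to 8729 in KO and 4505 to 7400 in WT with IL-4, 3102 to 3936 in KO and 1123 to 1538 in WT with IFN-gamma, and 2929 to 3667 in KO and 2281 to 3825 in WT untreated. Vwf made up most of it, with a mean of 907 in a mean sum of 1293 in WT with IFN-gamma. Cdh5, which defines endothelial cells, was at 29.4 normalized counts or less in every library, Tie1 at 3.13 or less and Esam at 16.3 or less. The means of Cdh5 were 4.37 in KO and 3.23 in WT with IL-4, 21.5 and 15.5 with IFN-gamma, and 4.68 and 3.01 untreated. Without Vwf the sums were 108 to 134 in KO and 197 to 333 in WT with IL-4, 186 to 213 in KO and 345 to 414 in WT with IFN-gamma, and 62.9 to 83.2 in KO and 17.1 to 46.8 in WT untreated. Most of this was Pecam1 (CD31), which leukocytes also express and whose means, like those of Flt1, were above untreated with both cytokines. Pecam1 averaged 110 ± 14.6 in KO and 256 ± 61.2 in WT with IL-4, 173 ± 16.0 in KO and 367 ± 36.9 in WT with IFN-gamma, and 53.2 ± 16.2 in KO and 25.5 ± 13.2 in WT untreated (SD, n = 3 each). The part of these markers in the Flt1 changes was not tested.

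The other VEGF receptor genes did not share this pattern. Kdr (VEGFR2) had means of 396 ± 70.0 in KO and 557 ± 121 in WT with IL-4, 3803 ± 490 in KO and 1329 ± 40.7 in WT with IFN-gamma, and 844 ± 105 in KO and 996 ± 79.6 in WT untreated (SD, n = 3 each). IL-4 lowered Kdr, with log2 changes of -1.10 ± 0.15 in KO and -0.86 ± 0.15 in WT (adjusted p = 1.51e-05 and 0.000214). IFN-gamma raised it by 2.17 ± 0.15 in KO and 0.42 ± 0.15 in WT (adjusted p = 7.09e-10 and 0.0193), and these responses differed by 1.75 ± 0.21 (adjusted p = 6.41e-05). The WT call did not hold after quantile normalization (adjusted p = 0.0986) or without WT untreated replicate 2 (0.0708) or 3 (0.0502). Flt4 (VEGFR3) averaged 1470 ± 194 in KO and 629 ± 83.7 in WT with IFN-gamma, and no library of another condition exceeded 8.74. IFN-gamma raised Flt4 by 8.59 ± 0.59 in KO and 8.42 ± 0.59 in WT (adjusted p = 1.00e-09 and 1.05e-09). Flt4 reached the low-value filter through the IFN-gamma libraries alone and so had to differ there.

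**Figure D2:**
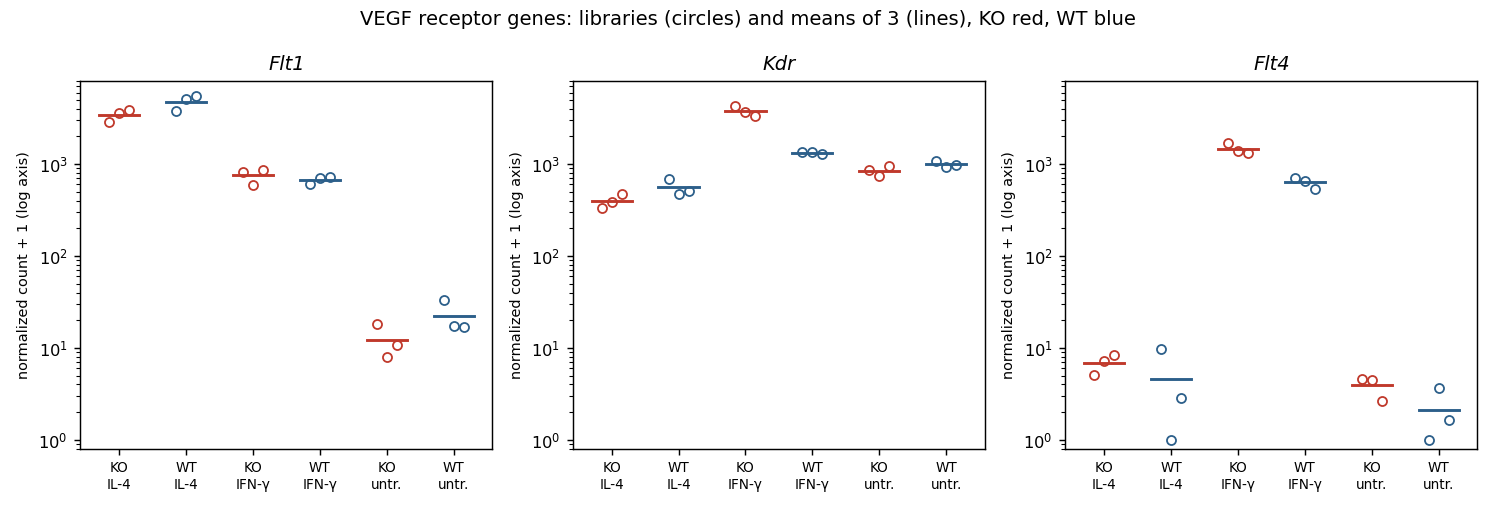
Normalized count plus 1 (log axis) of the 3 VEGF receptor genes in each library, with KO left of WT within each condition. Circles are libraries and lines are means of 3. Flt1 is highest with IL-4, Kdr and Flt4 are highest with IFN-gamma, and the Kdr libraries of KO with IFN-gamma (3354 to 4325) lie above those of WT (1283 to 1361).

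Counted over the 7 genes, IL-4 against untreated passed upward for 7 in KO and 7 in WT, where 15.8% and 16.3% of all genes tested were called higher, 14.5% and 14% lower, and 30.2% and 30.3% in either direction. Chil3 and Retnla, which passed the filter through the IL-4 libraries alone, are in these counts and lend them no weight. IFN-gamma against untreated passed upward for 1 gene (Flt1) and downward for 4 (Mrc1, Mgl2, Clec10a and Clec7a) in both genotypes. Of all genes tested, 28.3% were called higher and 27.5% lower in KO, and 31.4% higher and 31.1% lower in WT (55.8% and 62.4% in either direction), so a call in this comparison was common. IL-4 against IFN-gamma, which shares its libraries with both, passed upward for 7 genes in KO and 7 in WT (27.4% and 29.7% of all genes tested were called higher, 27.5% and 30.8% lower, and 55% and 60.5% in either direction). Chil3 and Retnla are in these counts too and, for the same reason, lend them no weight. Among the 4 genes with more than a few reads in every group, the log2 changes of IL-4 against IFN-gamma ran from 2.19 ± 0.28 for Flt1 to 8.30 ± 0.25 for Mrc1 in KO and from 2.81 ± 0.28 for Flt1 to 8.54 ± 0.25 for Mrc1 in WT. Mgl2 was at least 2189-fold higher with IL-4 than with IFN-gamma in KO, where it had 0 reads with IFN-gamma.

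**Figure D3:**
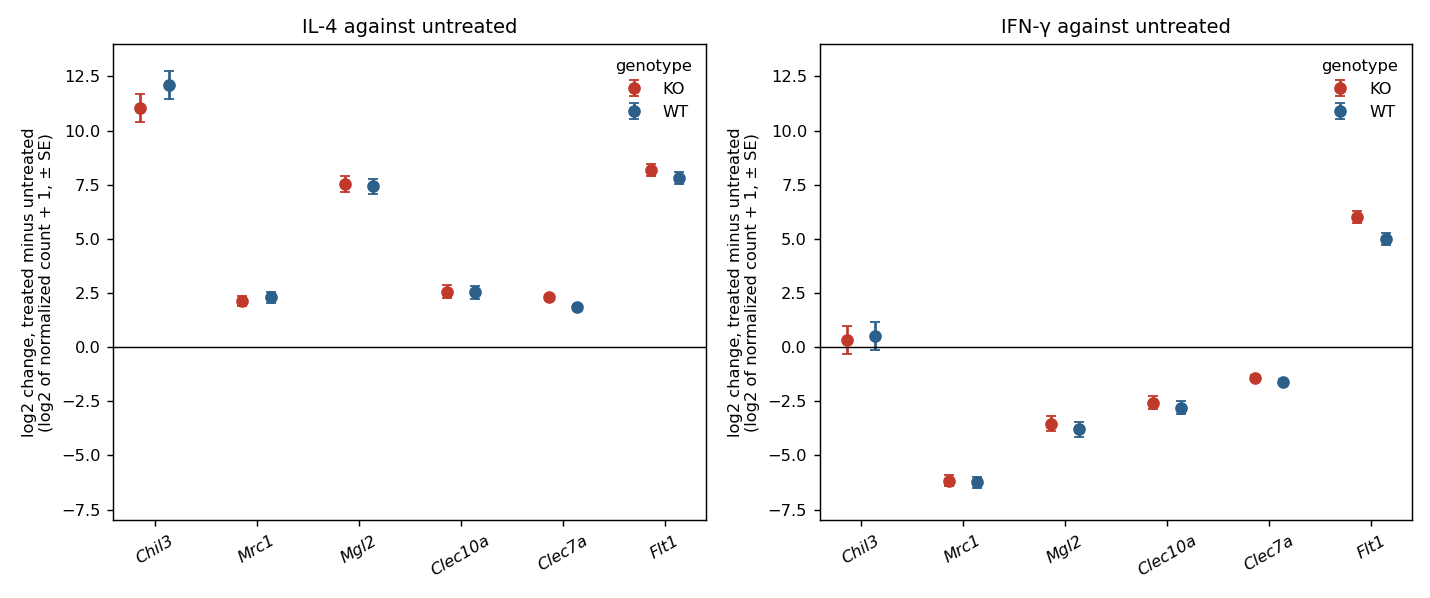
Log2 change of IL-4 (left panel) and IFN-gamma (right panel) against untreated, KO left of WT, with the SE of the fit. Retnla is not drawn because all its untreated libraries had 0 reads. With IL-4 all 6 drawn genes lie above 0, from 1.85 to 12.12, and with IFN-gamma 4 lie below 0 while Flt1 lies at 6.01 in KO and 4.99 in WT.

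Between KO and WT cells, Mrc1 was the gene of the 7 that passed. With IL-4 the KO mean was 49.7% of WT (-1.02 ± 0.25, adjusted p = 0.0209), with no overlap. Leaving out KO IL-4 replicate 1 ended this call (-0.90, adjusted p = 0.0938). With IFN-gamma the KO mean was 55.2% of WT (-0.77 ± 0.25, adjusted p = 0.0280), with overlapping libraries. That call was lost with the libraries of the 2 groups alone (adjusted p = 0.161) and when KO IFN-gamma replicate 2 (0.139), or in WT the replicates 2 (0.0768) or 3 (0.159) of that treatment, were left out. Untreated, the KO mean was 55.3% of WT (-0.85 ± 0.25) with no overlap, and did not pass (adjusted p = 0.0999). It passed with edgeR (0.0274), DESeq2 (0.00394), the 6 untreated libraries alone (0.0171), and when replicate 1 (0.0129) or 3 (0.0376) of WT with IFN-gamma was left out, libraries that enter the estimate of the spread. Averaged over the 3 treatments of each animal, Mrc1 was lower in KO by a log2 change of -0.88 ± 0.12 (adjusted p = 0.00384), and leaving out any 1 animal gave -1.03 to -0.74 with a pass each time. The genotype gap was not shown to differ across conditions: the IL-4 response of Mrc1 differed by -0.16 (95% interval -0.91 to 0.58) and its IFN-gamma response by 0.08 (-0.66 to 0.82) between KO and WT, intervals that leave room for sizeable differences. Of the marker sums given above, those of macrophages without Lyz2 were lower in KO than in WT without overlap with IL-4 and with IFN-gamma and overlapped untreated, and those of stromal cells overlapped in all 3 conditions. Single macrophage markers did not all follow the sum. With IFN-gamma, Csf1r and Cd68 were higher in KO without overlap, and Adgre1, Itgam, Cd14, Fcgr1 and Mertk had lower KO means.

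No other gene of the 7 passed between KO and WT. The counts were 1 of 7 lower with IL-4, 1 of 7 lower with IFN-gamma, 0 untreated and 1 lower on the average, beside 3.13%, 13.6%, 0.525% and 5% of all genes tested called lower. Called higher were 3.46%, 14.3%, 1.46% and 6.33%, and called in either direction 6.59%, 27.9%, 1.98% and 11.3%, in the same order. Untreated, 283 genes passed with limma and 1702 had an unadjusted p under 0.05, and edgeR called 384 and DESeq2 608. Mgl2 and Clec10a had lower means in KO with IL-4 and untreated, with Mgl2 overlapping in both. On the average over treatments Clec10a differed by -0.55 ± 0.22 (adjusted p = 0.147), and passed with edgeR (0.0454) and DESeq2 (0.0123), which treat the libraries of 1 animal as independent. Its IL-4 libraries did not overlap, at 613 to 953 in KO and 1103 to 1368 in WT. Mgl2 differed by -0.51 ± 0.18 on the average (adjusted p = 0.0975).

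Retnla with IL-4 was at 44.9% of WT in KO by means (-0.89 ± 0.44, adjusted p = 0.251). The overlap came from WT replicate 1, which lay below all KO libraries, and without it the change was -1.57 (adjusted p = 0.0157). Chil3 with IL-4 differed by -0.29 ± 0.64 (95% interval -1.64 to 1.06, adjusted p = 0.836). Leaving out KO replicate 2, the lowest, turned the change to 0.19. Clec7a with IL-4 was higher in all 3 KO libraries than in any WT library, by 0.28 ± 0.12 (adjusted p = 0.163). Untreated, Flt1 differed by -0.87 ± 0.28 (adjusted p = 0.139, and -1.20 with 0.0366 without KO untreated replicate 1), and differed by -0.40 ± 0.12 on the average (adjusted p = 0.0629, 0.0207 with DESeq2 and 0.0479 after quantile normalization).

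For the difference in response between KO and WT, 0 of the 7 genes passed for either cytokine with limma. Over all genes tested the IFN-gamma response differed for 1307 genes (9.15%, with 4.3% higher and 4.84% lower in KO) and for 2073 with the animal as a block. The IL-4 response differed for 1 gene (0.007%) and for 12 with the block, 774 genes had an unadjusted p under 0.05, and edgeR called 1 and DESeq2 21. Of the 7 genes, an unadjusted p under 0.05 was seen for Clec7a in the IL-4 response and for Flt1 in the IFN-gamma response.

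**Figure D4:**
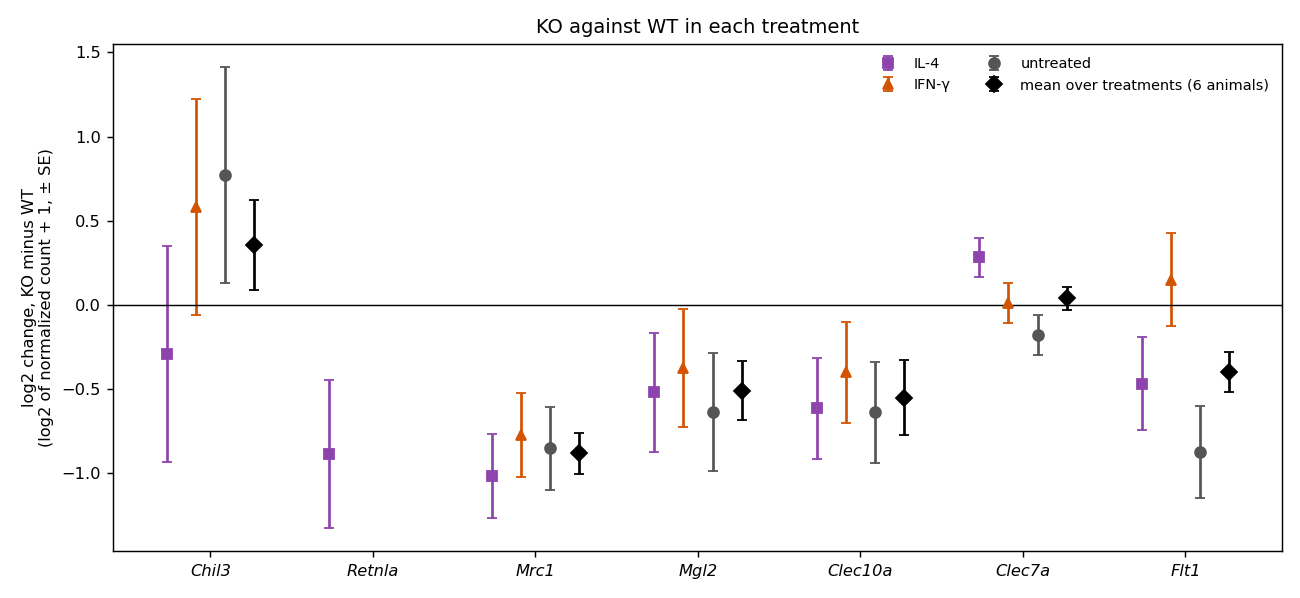
Log2 change of KO minus WT with IL-4, with IFN-gamma, untreated and on the mean over treatments of 6 animals, with the SE of each fit. Retnla is drawn with IL-4 alone, since all other libraries had 0 reads. Mrc1 lies below 0 throughout (-1.02, -0.77, -0.85 and -0.88), Clec7a lies above 0 with IL-4 (0.28), and Chil3 without IL-4 rests on 1 to 6 reads a group.

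Genes of the IL-4 receptor pathway were followed next. Of 18 listed genes 16 were tested, and IL-4 raised 4 and lowered 3 in KO and raised 4 and lowered 2 in WT, while IFN-gamma raised 12 and lowered 2 in both. Of all genes tested, 30.2% in KO and 30.3% in WT were called with IL-4, and 55.8% and 62.4% with IFN-gamma. Il4ra, the receptor chain, did not pass with IL-4 (0.07 ± 0.09 in KO and 0.22 ± 0.09 in WT, adjusted p = 0.636 and 0.0703). The WT value passed with the animal as a block (adjusted p = 0.0308), and when WT IL-4 replicate 2 (0.0397) or WT IFN-gamma replicate 1 (0.0443) was left out. IFN-gamma raised Il4ra by 2.20 ± 0.09 in KO and 2.69 ± 0.09 in WT (adjusted p = 1.05e-12 and 6.82e-14). These responses differed by -0.49 ± 0.13 (adjusted p = 0.0241), and with IFN-gamma Il4ra was lower in KO than in WT (-0.58 ± 0.09, adjusted p = 0.000166). Stat6 did not pass with IL-4 (-0.13 ± 0.06 in KO and -0.08 ± 0.06 in WT, adjusted p = 0.0991 and 0.289), though in KO it did with DESeq2 (0.0412) and after quantile normalization (-0.23, 0.00261), as WT then did too (-0.20, 0.00744). The feedback genes Cish and Socs1 rose with IL-4, Cish by 5.81 ± 0.35 in KO and 5.28 ± 0.35 in WT, and Socs1 by 4.87 ± 0.20 in KO and 5.18 ± 0.20 in WT (adjusted p = 1.31e-09, 5.47e-09, 1.30e-11 and 8.02e-12). IFN-gamma raised Socs1 further, by 7.94 ± 0.20 in KO and 8.73 ± 0.20 in WT (adjusted p = 1.46e-15 and 7.63e-16). Cish rose with IFN-gamma too, by 5.18 ± 0.35 in KO and 5.80 ± 0.35 in WT (adjusted p = 7.03e-10 and 1.23e-10).

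Among 34 other genes known to be induced by IL-4 in mouse macrophages, 29 were tested and IL-4 raised 23 in KO and 24 in WT and lowered 0, beside 15.8% and 16.3% of all genes tested called higher. Some of them, Arg1 and Rnase2a included, reached the low-value filter only through the IL-4 libraries. Such genes had to differ there and lend these counts and medians no weight. The list's medians were 2.67 and 2.31 on the log2 scale, beside 0.00 and -0.01 over all genes. Arg1, which encodes arginase 1 and breaks down arginine, had 5299, 3792 and 6152 normalized counts in KO and 7319, 4200 and 5491 in WT with IL-4, against 2.60 or less in KO and 4.87 or less in WT untreated. It rose by 11.20 ± 0.48 in KO and 10.14 ± 0.48 in WT (adjusted p = 2.35e-11 and 9.52e-11). With IFN-gamma the same 29 genes split, 13 up and 10 down in KO and 12 up and 10 down in WT (55.8% and 62.4% of all genes called), so that a rise with both cytokines, as seen for Flt1, occurred among them too: Slc7a2, an arginine transporter, rose by 7.37 ± 0.32 with IL-4 and 5.06 ± 0.32 with IFN-gamma in KO (adjusted p = 2.69e-11 and 2.93e-10). In WT, Slc7a2 averaged 10285 ± 2349 with IL-4, 1070 ± 640 with IFN-gamma and 122 ± 37.5 untreated (SD, n = 3 each). Its IFN-gamma response was larger in KO than in WT by 2.07 ± 0.45 (adjusted p = 0.00799). Igf1, a growth factor, was lower with IFN-gamma, with changes of -4.03 ± 0.10 in KO and -4.34 ± 0.10 in WT (adjusted p = 1.46e-15 and 7.91e-16).

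Few relatives of Chil3 and Retnla were measured. Of 10 listed chitinase-like and resistin-like genes, 2 were tested and both rose with IL-4 in KO and in WT. Of all genes tested, 15.8% in KO and 16.3% in WT were called higher. Chil4 (Ym2), the near copy of Chil3, averaged 34.0 ± 8.74 in KO and 25.4 ± 10.5 in WT with IL-4, and its shared sequence with Chil3 limits both values. Chil4 reached the low-value filter through the IL-4 libraries alone and so had to differ there, and it lends the count no weight. Chid1, a chitinase-domain gene, rose by 0.50 ± 0.08 in KO and 0.60 ± 0.08 in WT (adjusted p = 9.91e-05 and 1.70e-05).

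Other C-type lectins moved in both directions with IL-4. Of 50 others listed, 29 were tested, of which IL-4 raised 3 and lowered 9 in KO and raised 3 and lowered 7 in WT, with medians of -0.07 and -0.10, where 15.8% and 16.3% of all genes tested were called higher and 14.5% and 14% lower. Olr1, the receptor for oxidized low-density lipoprotein, rose by 5.28 ± 0.60 in KO and 4.96 ± 0.60 in WT (adjusted p = 3.02e-06 and 6.75e-06). Clec12a, an inhibitory receptor, fell by 1.52 ± 0.14 in KO and by 1.30 ± 0.14 in WT (adjusted p = 2.69e-07 and 1.95e-06). Clec4n (dectin-2), a receptor for fungal mannan, fell by 1.33 ± 0.30 in KO (adjusted p = 0.00264), where Clec7a (dectin-1) rose. In WT the Clec4n change of -0.97 ± 0.30 passed (adjusted p = 0.0223), but not with DESeq2 (0.0620), edgeR (0.0535) or the compared libraries alone (0.105), nor without WT IL-4 replicate 2 (0.113) or 3 (0.0974) or WT untreated replicate 1 (0.102). With IFN-gamma 10 of the 29 rose and 11 fell in KO, and 13 rose and 9 fell in WT, beside 55.8% and 62.4% of all genes tested called in either direction. Klrk1 (NKG2D), an activating receptor, rose by 8.40 ± 0.82 in KO and 9.49 ± 0.82 in WT (adjusted p = 9.96e-08 and 1.55e-08), and Clec9a, a receptor for dead cells, rose by 6.88 ± 0.55 and 7.53 ± 0.55 (adjusted p = 8.26e-09 and 1.91e-09). Klrk1 and Clec9a had means of 7.86 or less in the other groups. They reached the low-value filter only through the IFN-gamma libraries and so had to differ there. Between KO and WT with IL-4, 2 of the 29 were higher in KO and 1 was lower, beside 3.46% and 3.13% of all genes tested. With the compared libraries alone the count was 0.

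**Figure D5:**
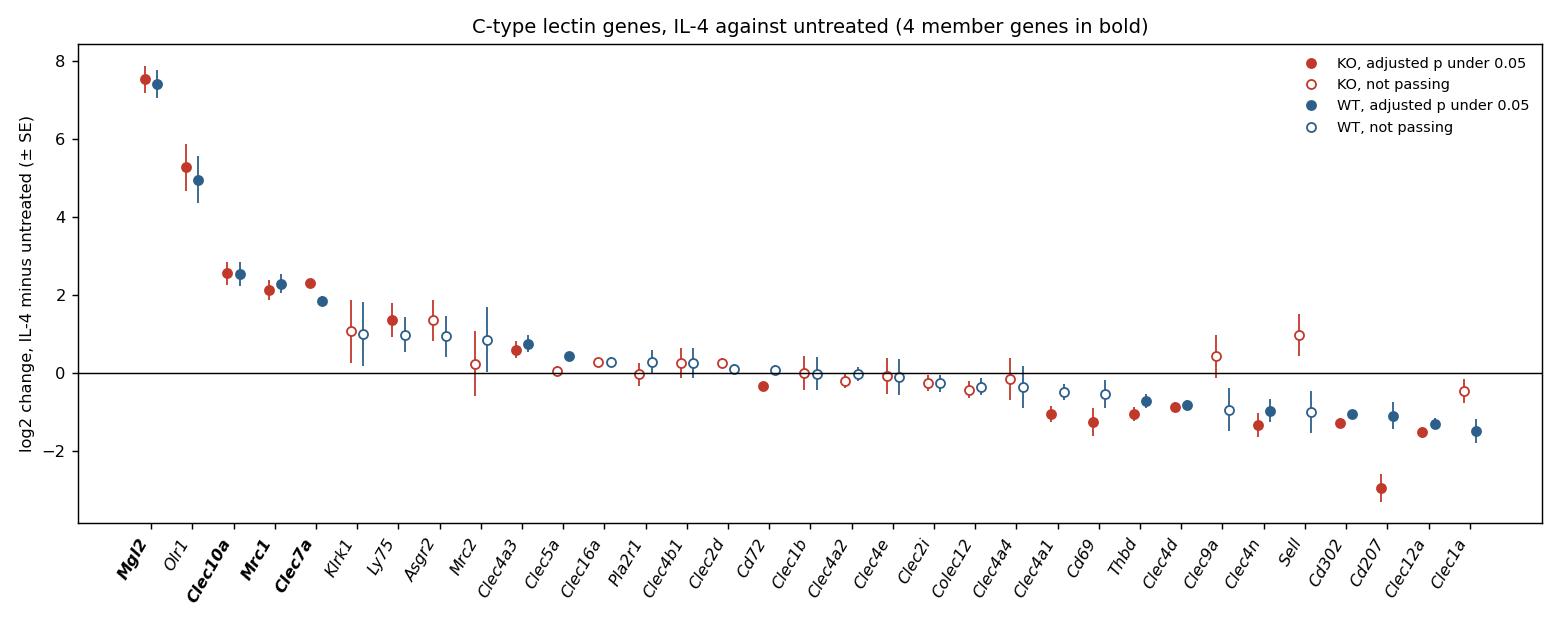
Log2 change of IL-4 against untreated for 33 C-type lectin genes, in falling order of the WT value, with KO left of WT and the SE of the fit. Filled circles passed (adjusted p under 0.05) and open ones did not. The 4 lectins described above (bold) and Olr1 are the 5 genes at the upper end, from 1.85 to 7.54.

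Dendritic cell markers are given because some dendritic cells carry Mgl2 and Clec10a. Of 8 listed, 6 were measured, and they summed to 18099 to 22654 in KO and 21377 to 26639 in WT with IL-4, 1521 to 2426 in KO and 2058 to 2190 in WT with IFN-gamma, and 1085 to 2113 in KO and 1886 to 2813 in WT untreated. Itgax (CD11c), which macrophages also express, made up most of the IL-4 sum. Without it the sums were 467 to 592 in KO and 262 to 400.0 in WT with IL-4, 577 to 776 in KO and 1091 to 1393 in WT with IFN-gamma, and 64.5 to 93.5 in KO and 83.6 to 83.9 in WT untreated. The medians of these sums were highest with IFN-gamma (621 in KO, overlapping IL-4, and 1356 in WT), where Mgl2 and Clec10a were lowest. The single markers differed in pattern. Zbtb46 averaged 63.9 in KO and 22.9 in WT with IL-4, 11.4 in KO and 7.93 in WT with IFN-gamma, and 7.75 in KO and 1.94 in WT untreated, and the means of Batf3 were also highest with IL-4. Xcr1 averaged 1.48 in KO and 0.572 in WT with IL-4, 169 in KO and 788 in WT with IFN-gamma, and 6.08 in KO and 2.73 in WT untreated, and the means of Dpp4 and Ccr7 were highest with IFN-gamma as well. Their part in the Mgl2 and Clec10a changes was not tested.

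Across the 18 libraries, which share their treatments, Mgl2 and Clec10a correlated at Pearson's r = 0.97, Chil3 and Retnla at 0.98, and Mrc1 and Flt1 at 0.050, given as a description. Among 9727 genes with a mean of at least 100, those with the highest r were Ap2m1, Arg1 and Rnase2a for Chil3 (0.98 to 0.99), Ap2m1, Smap2 and Inpp5a for Retnla (0.99), and Adcy7, Hfe and Tbc1d16 for Mrc1 (0.99 to 1.0). They were Arl15, Cdk20 and Stt3b for Mgl2 (0.99), Itsn1, Lpcat1 and Rps6ka3 for Clec10a (0.98), Prps1, Atp6v0d2 and Hmgn2 for Clec7a (0.99) and Azin2, Slc7a2 and Mgat1 for Flt1 (0.97 to 0.98).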

How the data were processed

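Poly(A)-selected RNA of 18 libraries of bone marrow-derived macrophages was sequenced from directional libraries, per the labels' protocols. The submitters' processing notes name STAR 2.5, HTSeq 0.6, the build GRCm38, and DESeq2 and edgeR with no version. The strand setting of the counting is not stated in the labels used here, but no gene overlaps the 7 on the opposite strand in GENCODE M21. The deposited table holds a signal, normalized counts, that is reads the authors divided by 1 size factor per library. Each column was divided by its smallest step, and 100% of values then lay within 0.1 of a whole read, which gives the depths. For KO IL-4 replicate 1 the step is close to a power of 10, so that its division is less certain.

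The 14288 genes that reached 10 normalized counts in 3 or more libraries were tested with limma 3.58.1 in R 4.3.3 on log2 of the count plus a pseudocount of 1, with 1 mean per group, the trend option, 12 residual degrees of freedom and two-sided tests, with Benjamini-Hochberg adjustment across those genes. KO against WT on average used 6 animal means (4 degrees of freedom). Differences of responses are interaction terms. The recovered reads were tested with edgeR 4.0.16 and DESeq2 1.42.0 as alternatives, edgeR's quasi-likelihood test calling 4611 genes in KO and 4347 in WT for IL-4 against untreated (limma 4318 and 4332). The limma fit was checked on simulated data. Exact intervals (95%) and floors (3 reads over a group) cover counting error only, as reads carry no molecular identifiers.

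Animal codes in the labels join libraries of 1 animal across treatments. After subtraction of group means such pairs correlated at r = 0.0036 to 0.24, 13 of 18 above 0.1. In an alternative the block was the animal for treatment comparisons and differences of response. For KO against WT it was the replicate number, which pairs KO and WT animals by their number in the labels alone. No replicates were duplicates (chi-square per gene 4.49 to 63.4). The named genes were the 7, up to 5 called genes per related list and comparison with the largest change and a mean of at least 100, and Arg1, Il4ra, Stat6, Vegfa and Kdr. The 7 genes and all lists were chosen with earlier results of these data known. Chil4 and the single marker genes were named after their values were seen. Alternatives were other pseudocounts, filters, scalings, tools and sample sets, the block, and leaving out each library. Neutrophil markers (4 of 8 measured) summed to 2010 to 3234 in KO and 4744 to 5467 in WT with IL-4, eosinophil, basophil and mast cell markers (5 of 8) to 239 to 340 in KO and 204 to 423 in WT, and lymphocyte markers (3 of 8) to 25.2 to 50.1 in KO and 105 to 125 in WT. Csf3r made up nearly all of the neutrophil sums and Cd4 nearly all of the lymphocyte sums. Of the other neutrophil markers with IL-4, S100a8 averaged 11.1 in KO and 7.65 in WT, and Ltf and Camp 3.49 or less.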

Additional observations from a re-analysis of the deposited data

How the results depend on the processing

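For the 7 genes, the counts of passes for IL-4 against untreated, IFN-gamma against untreated and IL-4 against IFN-gamma were the same under every alternative run, in KO and in WT. With a block no call of the 7 genes changed (Mrc1 on the average over treatments, adjusted p = 0.00867). The block was the animal for treatment comparisons and differences of response, and the replicate number for KO against WT. Between KO and WT the count moved with single choices. With IFN-gamma it was 0 with the libraries of the compared groups alone and 0 to 1 without single replicates. With IL-4 it was 0 to 2 without single replicates. Untreated it was 1 with DESeq2, with edgeR and with the compared groups alone, and 0 to 1 without single replicates. On the average over treatments it was 3 with DESeq2, 2 with edgeR and 2 after quantile normalization. For the difference of the IFN-gamma response it was 1 with DESeq2 and 0 to 1 without single replicates. The cause of these moves was not tested. Genes called on the average over treatments numbered 1618 with limma, 1031 with the replicate number as a block, 3939 with edgeR and 4241 with DESeq2.

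Changes near 0 turned sign without passing. In the IL-4 response, the KO minus WT difference of Clec10a was -0.068 with DESeq2 and -0.062 with edgeR and ran from -0.42 to 0.26 without single replicates, and that of Mgl2 was -0.015 with a pseudocount of 5 and ran from -0.24 to 0.43. In the IFN-gamma response, that of Mgl2 was -0.23 with DESeq2 and -1.35 with edgeR and ran from -0.090 to 0.64 without single replicates, that of Chil3 from -0.73 to 0.65, that of Clec10a from -0.20 to 0.51 and that of Mrc1 from -0.29 to 0.40. Without single replicates, IFN-gamma against untreated ran from -0.20 to 0.97 in KO and from -0.31 to 0.95 in WT for Chil3, and IL-4 against untreated in KO from -0.0013 to 0.13 for Il4ra. KO against WT ran from -0.54 to 0.19 with IL-4 for Chil3, from -0.56 to 0 with IFN-gamma for Mgl2, from -0.11 to 0.14 with IFN-gamma for Clec7a, and from -0.014 to 0.084 on the average for Clec7a.

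With 3 libraries per group, depth was no limit for Mrc1 or Clec7a. It limited Chil3, Retnla and Mgl2 outside IL-4, which had 0 to 63 reads a group, and Flt1 untreated, which had 39 reads in KO and 75 in WT. KO and WT also differed in Lyz2, and loss of Ldha cannot be told apart from other differences between these animals. Comparisons within a genotype share their untreated libraries.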

Other observations

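Some other IL-4-induced genes also differed between KO and WT, though most of them, like most of the 7 genes, did not pass. With IL-4, 4 of 29 tested genes were higher in KO, 1 was lower and 24 did not pass. Of all genes tested, 3.46% were called higher and 3.13% lower. Ccl22, a chemokine that attracts T cells and alternative-activation marker, was higher in KO by 1.96 ± 0.30 (adjusted p = 0.000768) and Mmp12, the macrophage elastase, by 1.21 ± 0.21 (adjusted p = 0.0023). Cd83, a surface protein of activated antigen-presenting cells, was lower by a log2 change of -0.94 ± 0.17 (adjusted p = 0.00245). Mmp12 was also higher in KO with IFN-gamma (3.34 ± 0.21, adjusted p = 1.32e-08), and its IFN-gamma response differed by 2.44 ± 0.30 (adjusted p = 8.66e-05). With IL-4, Ccl22 and Mmp12 thus stood above WT in KO cells, and Mrc1 and Cd83 below it. These differences were not limited to IL-4. Ccl22 was also higher in KO with IFN-gamma (2.57 ± 0.30, adjusted p = 1.04e-05), and Mmp12 untreated (0.90 ± 0.21, adjusted p = 0.0319). Averaged over treatments, Ccl22 differed by 1.98 ± 0.17, Mmp12 by 1.82 ± 0.15 and Cd83 by -0.87 ± 0.12 (adjusted p = 0.000492, 0.000404 and 0.0043).

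Of the VEGF ligands, Vegfa rose with IFN-gamma by 1.47 ± 0.27 in KO and 2.11 ± 0.27 in WT (adjusted p = 0.000146 and 2.14e-06), and Vegfb fell by 0.64 ± 0.10 in KO and by 1.12 ± 0.10 in WT (adjusted p = 3.87e-05 and 3.58e-08). Nrp2, a VEGF co-receptor, rose by 1.68 ± 0.09 in KO and 1.40 ± 0.09 in WT with IFN-gamma (adjusted p = 1.71e-11 and 1.66e-10). Of the 8 VEGF genes tested besides Flt1, IL-4 raised 2 and lowered 1 in KO and raised 2 and lowered 2 in WT, beside 30.2% and 30.3% of all genes tested called. IFN-gamma raised 4 and lowered 1 in both genotypes, near the 55.8% in KO and 62.4% in WT of all genes tested.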
